A study of Rattus norvegicus with 6 samples.

Results

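Organic ion and drug transporters move charged waste products, hormones, urate, carnitine and medicines into and out of renal tubule cells. The genes were taken as all probe sets whose single gene symbol on the array's annotation begins with Slc22a, Slc47a, Slco, Abcb, Abcc or Abcg. This gave 69 of 31042 probe sets, for 52 of 14217 genes. Kidney RNA was compared between 3 male Dahl salt-sensitive rats (Dahl S, written Dahl(S) in the labels), a strain that becomes hypertensive on salt, and 3 male Lewis rats, with 1 array per rat. Both strains ate chow with 8% NaCl for 8 weeks, beginning when they were 5 weeks old. Every strain difference below is therefore one between salt-loaded animals, and what the strains inherit and how each responds to salt cannot be told apart.

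The proximal tubule secretes organic ions in 2 steps, carried out by proteins on opposite faces of the cell. Organic anion transporters of the Slc22 family on the blood side take anions up in exchange for the dicarboxylate alpha-ketoglutarate, and organic cation transporters of the same family admit cations down their electrical gradient. On the urine side, ATP-driven pumps of the Abcb, Abcc and Abcg families and the proton exchanger Slc47a1 release drugs and conjugates. The Slco family, the organic anion transporting polypeptides, carries steroid conjugates, bile acids, thyroid hormone and prostaglandins into cells, and some members work on the luminal face. By known function, 35 probe sets (26 genes) were put in an uptake class of Slc22a and Slco members and 20 (16 genes) in an efflux class of Slc47a1 and plasma membrane ABC pumps. The other 14 probe sets (10 genes) belong to neither, being organelle ABC proteins, the potassium channel regulators Abcc8 and Abcc9, an Abcg3 relative and Slc22 members with other or unknown roles.

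Uptake genes differed between the strains in both directions, and no efflux gene passed the threshold. Testing was limited to probe sets that exceeded the overall median signal on 3 or more of the 6 arrays. Of the 35 uptake probe sets 23 were tested, and 4 were higher and 9 lower in Dahl S at an adjusted p under 0.05 (limma, two-sided, adjusted over all 15797 probe sets tested). That is 56.5% of the tested uptake probe sets, where 16.2% of all tested probe sets passed, 8.5% higher and 7.75% lower. By gene, 3 of 19 tested uptake genes were higher and 7 lower, where 16.7% of all 9540 tested genes passed, 9.04% higher and 7.62% lower. The median difference of the tested uptake probe sets was -0.18 on the log2 scale, beside 0.00 over all tested probe sets. Of 12 tested efflux probe sets 0 were higher and 0 lower by limma, with a median of -0.16 and 2 at an unadjusted p under 0.05, a level that 29.8% of all tested probe sets reached. Differences below 0 were seen in 11 of the 12 tested efflux probe sets, 12 of the 23 tested uptake probe sets and 7872 of all 15797. Of 11 tested probe sets in neither class 3 were lower and 8 did not pass. With class set by family prefix alone, 2 efflux probe sets were lower, both of Abcb10. Whether the classes differ from each other was not tested. The tested efflux probe sets were dimmer, with a median log2 value per array of 6.67 to 7.04 against 8.16 to 8.52 for uptake. The overall median used as the filter was 6.28. A stricter filter, a mean at least 1 log2 unit above it, left 4 efflux and 18 uptake probe sets. The part of signal level in the unlike counts was not tested. Of all 69 member probe sets 46 were tested, and the 23 others, at deposited intensities of 0.6 to 101.9, include every probe set of 13 genes. Every member that passed the filter had arrays of both strains above that median. For 1 of the Slco2a1 probe sets and both Abcb1a probe sets these were 3 Lewis arrays and 1 Dahl S array. The Lewis arrays, the higher ones, thus met the filter alone for these probe sets.

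Scaling matters for these counts. The deposited intensities were not brought to a common level (2% trimmed mean 118 to 229 on the Lewis arrays and 204 to 249 on the Dahl S arrays), and in them the median tested probe set stood 0.41 log2 units above Lewis in Dahl S. Differences here are from quantile-normalized log2(signal + 16) values and are relative to the typical probe set. Without scaling, 616 probe sets were higher and 58 lower, against 1343 and 1224 after normalization. In unscaled values 1 uptake probe set, of Slco1a3, was called, and 0 were lower. Scaling each array to a common median gave 3 uptake probe sets higher and 7 lower, and 1 efflux probe set lower.

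**Figure D1:**
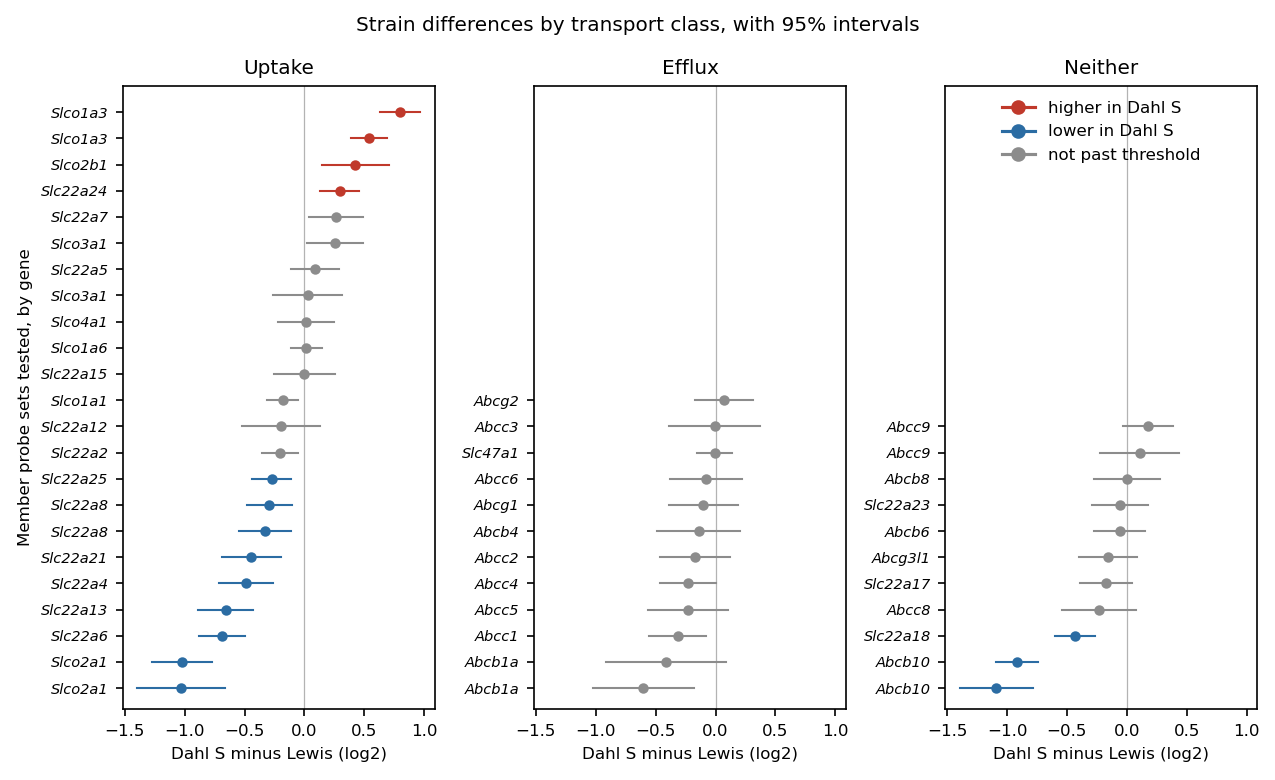
Dahl S minus Lewis difference of each of the 46 tested probe sets (log2 scale, point) with its 95% interval from limma (bar), in panels for uptake, efflux and neither class; red marks probe sets higher in Dahl S, blue lower and grey not past the threshold, and a gene with several probe sets appears several times. After quantile normalization, 4 uptake probe sets lie to the right and 9 to the left as called, and all 12 efflux bars are grey. Unscaled values are not drawn here, and in them 1 Slc22a8 probe set and Slc22a25 turn to 0.10 and 0.11.

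Promoters of 5 members are shown because their genes were called and stand for the patterns described below. Slc22a8, Slc22a25 and Slc22a24 follow each other among the member genes on chromosome 1, in the order Slc22a24, Slc22a25, Slc22a8, Slc22a6. Slco2a1 had the largest difference downwards among the uptake genes and Slco1a3 the largest difference upwards, in either of its probe sets. Each sequence holds the 250 bases before 1 transcript start of the gene in RefSeq, assembly GRCr8, read 5′ to 3′ on the gene's own strand. The gene models of Slc22a8 and Slc22a25, which have several transcripts, also extend upstream of that start. Capitals mark exact matches of GTTAAT, an element of sites for hepatocyte nuclear factor 1, a transcription factor of the proximal tubule (ATTAAC on the other strand). They also mark exact matches of TATAAA, the core letters of the TATA box. Both strands were searched at any distance from the start, and the motifs do not overlap. Other forms, such as the tatataa close to the start of Slc22a8, were not marked, and whether any match works as a site was not tested. The windows are chr1:214927034-214927283 (plus strand), chr1:214862341-214862590 (minus strand), chr1:214394682-214394931 (minus strand), chr8:112467489-112467738 (plus strand) and chr4:176749724-176749973 (minus strand) for the genes in the order printed.
Slc22a8: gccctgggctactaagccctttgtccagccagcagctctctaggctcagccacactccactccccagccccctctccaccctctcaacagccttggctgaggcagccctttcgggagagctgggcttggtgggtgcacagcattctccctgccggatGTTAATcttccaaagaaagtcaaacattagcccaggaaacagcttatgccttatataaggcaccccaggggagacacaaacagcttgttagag
Slc22a25: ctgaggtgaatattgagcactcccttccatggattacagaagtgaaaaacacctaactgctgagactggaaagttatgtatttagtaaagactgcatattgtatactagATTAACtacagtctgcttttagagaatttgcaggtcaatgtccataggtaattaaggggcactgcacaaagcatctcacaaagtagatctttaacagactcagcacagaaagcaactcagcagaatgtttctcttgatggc
Slc22a24: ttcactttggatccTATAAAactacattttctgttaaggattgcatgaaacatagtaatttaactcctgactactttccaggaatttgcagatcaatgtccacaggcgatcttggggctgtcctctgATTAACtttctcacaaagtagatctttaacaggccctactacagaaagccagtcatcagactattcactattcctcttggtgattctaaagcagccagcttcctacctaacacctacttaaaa
Slco2a1: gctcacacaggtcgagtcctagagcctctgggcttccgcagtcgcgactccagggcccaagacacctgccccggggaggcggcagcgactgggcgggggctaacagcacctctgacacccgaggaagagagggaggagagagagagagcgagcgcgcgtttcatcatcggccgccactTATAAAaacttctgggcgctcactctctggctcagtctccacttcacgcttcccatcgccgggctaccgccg
Slco1a3: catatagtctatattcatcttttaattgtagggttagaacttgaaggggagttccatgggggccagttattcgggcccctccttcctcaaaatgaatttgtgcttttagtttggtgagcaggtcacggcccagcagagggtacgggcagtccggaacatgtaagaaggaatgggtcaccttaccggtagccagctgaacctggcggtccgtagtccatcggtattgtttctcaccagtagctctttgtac
GTTAAT was found in the windows of Slc22a8, Slc22a25 and Slc22a24, ending 87, 135 and 117 bases before the start. Of 43 member genes that the RefSeq promoters cover, 5 held it (Abcc2 and Slco1b2 were the others), and 6.45% of all 33469 promoters did. Of the 3 printed genes with GTTAAT, Slc22a24 was higher and Slc22a8 and Slc22a25 were lower in Dahl S. The part of the motif in these differences was not tested. TATAAA ended 66 bases before the start of Slco2a1 and 230 bases before that of Slc22a24. Of the 43 member genes 7 held that motif, and 12.9% of all promoters did.

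Slc22a6, which encodes OAT1, the classical basolateral transporter of para-aminohippurate, loop diuretics and many acidic drugs, was lower in Dahl S. Its normalized log2 values were 11.83, 11.51 and 11.52 for the Lewis rats, given here and below in the order of their replicate numbers, against 11.00, 10.83 and 10.98 for the Dahl S rats. Every Dahl S array lay below every Lewis array. The difference was -0.69 (SE 0.09, n = 3 per strain, limma adjusted p = 1.9e-04), or 1.61-fold, and stayed past the threshold with any 1 array left out (-0.74 to -0.57). In unscaled values it was -0.37 (SE 0.32, adjusted p = 0.41). In whole-kidney RNA, fewer cells of a type and less RNA per cell cannot be told apart, here and for every gene below. Whether the probes match the sequence of both strains equally was not checked, so a signal difference need not be one in RNA amount.

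Slc22a8, which encodes OAT3, the second main basolateral anion transporter, was lower by a smaller margin, and its direction was lost without scaling. The brighter of its 2 probe sets read 11.94, 11.82 and 11.58 on the Lewis arrays and 11.58, 11.39 and 11.48 on the Dahl S arrays, so that the strains met at Lewis array 3 and Dahl S array 1. The difference was -0.29 (SE 0.09, adjusted p = 0.0364), and the other probe set gave -0.33 (SE 0.10, adjusted p = 0.0423) with no overlap. The call of the brighter probe set was lost without Lewis array 1 or 2 or Dahl S array 2 or 3 (-0.30 to -0.20), and that of the other without any single array except Lewis array 1. Without a filter neither passed (adjusted p = 0.12 and 0.074), and without a variance trend the brighter did not (adjusted p = 0.12). In unscaled values the probe sets gave -0.01 and 0.10, and after bringing arrays to a common median -0.35 (adjusted p = 0.05) and -0.24 (adjusted p = 0.21).

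Slc22a24 and Slc22a25, also of the organic anion transporter branch, went in opposite directions. Slc22a24 read 9.76, 9.90 and 9.95 on the Lewis arrays and 10.10, 10.17 and 10.22 on the Dahl S arrays, a difference of 0.29 (SE 0.08, adjusted p = 0.0205) without overlap. Slc22a25 read 10.76, 10.84 and 10.95 in Lewis and 10.49, 10.67 and 10.58 in Dahl S, a difference of -0.27 (SE 0.07, adjusted p = 0.0247), which was 0.11 in unscaled values. Neither passed when arrays were brought to a common median (0.36 and -0.24, adjusted p = 0.099 and 0.26). Slc22a24 was lost without Dahl S array 2 or 3 (0.29 and 0.27), and Slc22a25 without Lewis array 2 or 3 or Dahl S array 1 or 3 (-0.28 to -0.22). Without a variance trend neither passed (adjusted p = 0.058 and 0.082), nor did Slc22a25 without a filter (adjusted p = 0.059). In the GRCr8 annotation the Slc22a25 model overlaps Slc22a8 and Slc22a6, and members of this branch resemble each other in sequence, so their signals are uncertain as measures of separate transcripts.

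Among the luminal anion exchangers, Slc22a13, which encodes the urate and nicotinate exchanger OAT10, was lower in Dahl S. It read 8.03, 7.74 and 7.97 in Lewis and 7.23, 7.29 and 7.25 in Dahl S. All 3 Dahl S arrays lay below the Lewis arrays, with a difference of -0.66 (SE 0.11, adjusted p = 0.00118), or 1.58-fold, that passed without any 1 array. Slc22a12, which encodes URAT1, the main luminal urate reabsorber, gave -0.20 (SE 0.15, 95% interval -0.52 to 0.13, adjusted p = 0.412). Lewis array 1 stood at 11.27 for this gene while the other 5 arrays lay between 10.51 and 10.73, and without it the difference was 0.03. Slc22a7, which encodes OAT2, was 0.26 (SE 0.10, adjusted p = 0.105) with no overlap between the strains, and did not pass.

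Carnitine and cation uptake genes split. Slc22a4, which encodes the luminal ergothioneine and cation transporter OCTN1, read 8.32, 8.05 and 8.18 in Lewis and 7.79, 7.64 and 7.65 in Dahl S. The strains did not overlap, and the difference of -0.49 (SE 0.10, adjusted p = 0.0063) passed without any 1 array. Slc22a21, which lies beside it in the order of members on chromosome 10 and is a relative of the carnitine transporters, had a difference of -0.44 (SE 0.11, adjusted p = 0.0179) that missed the threshold without Dahl S array 2 or 3 (-0.43 and -0.41). Unscaled values gave -0.06 for Slc22a4 and -0.05 for Slc22a21. Slc22a5, which encodes OCTN2, the high-affinity transporter that reclaims carnitine from the filtrate, gave 0.09 (SE 0.09, 95% interval -0.11 to 0.29, adjusted p = 0.557). Slc22a15 gave 0.00 (SE 0.12).

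For cations, Slc22a2, which encodes OCT2, the basolateral entry route for creatinine and metformin, was just short of the threshold. It read 11.92, 11.80 and 11.69 in Lewis and 11.68, 11.54 and 11.57 in Dahl S, with Lewis array 3 and Dahl S array 1 nearly equal. The difference was -0.21 (SE 0.07, 95% interval -0.36 to -0.06, adjusted p = 0.063), and it passed without Lewis array 3 (-0.26, adjusted p = 0.025), while unscaled values gave 0.08. Slc22a3, which encodes OCT3, was not tested, with deposited intensities of 2.8 to 13.6.

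**Figure D2:**
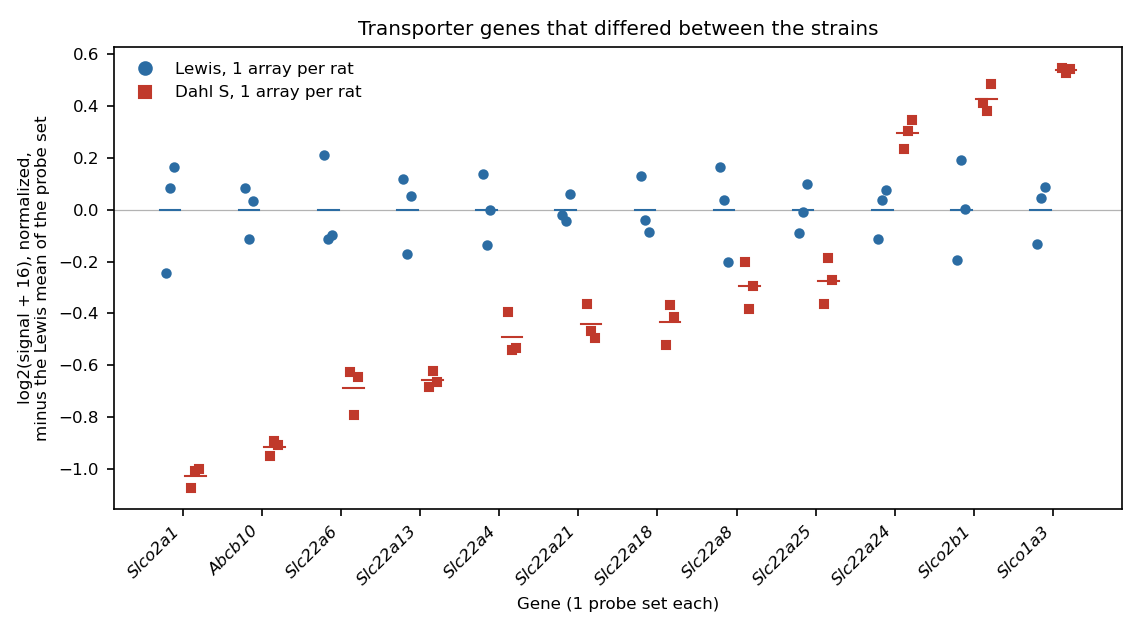
Normalized log2(signal + 16) of each array minus the Lewis mean of the probe set (y axis, log2 units) for the 12 genes past the threshold (x axis, 1 probe set each), with Lewis arrays as blue circles, Dahl S arrays as red squares and strain means (n = 3) as lines. Dahl S points lie below the Lewis points for Slco2a1, Abcb10, Slc22a6, Slc22a13, Slc22a4, Slc22a21, Slc22a18 and Slc22a25 and above them for Slc22a24, Slco2b1 and Slco1a3; for Slc22a8 the strains meet.

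The largest difference of an uptake gene was that of Slco2a1, which encodes the prostaglandin transporter PGT and takes prostaglandin E2 into cells for breakdown. Its brighter probe set read 8.12, 8.44 and 8.52 in Lewis and 7.29, 7.35 and 7.36 in Dahl S. The lowest Lewis array lay well above the highest Dahl S array, and the difference was -1.03 (SE 0.12, adjusted p = 7.4e-05), or 2.04-fold. The other probe set, at 7.57, 7.07 and 6.98 against 6.34, 5.96 and 6.23, also gave -1.03 (SE 0.17, adjusted p = 0.00119). That probe set met the filter through its 3 Lewis arrays, with 1 Dahl S array above the overall median. Both passed without any 1 array (-1.16 to -0.94 and -1.15 to -0.87), and in unscaled values they gave -0.61 and -0.65 (adjusted p = 0.26 and 0.19). Slco2a1 is also expressed by endothelium and collecting duct. Of 6 tested endothelial markers 2 were lower (Pecam1 at -0.40 and Emcn at -0.36) and 1, Vwf, was higher by 0.46. Of all tested genes 7.62% were lower and 9.04% higher. The summed normalized signal of the endothelial markers on the array was 3258 to 3360 in Lewis and 2867 to 3032 in Dahl S. Of 8 loop, distal and collecting duct markers 2 were lower, Aqp3 at -0.29 and Scnn1a at -0.52, and 6 did not pass, with summed signals of 24894 to 26305 in Lewis and 23959 to 24503 in Dahl S. No marker of either list was at 0, and their part in the Slco2a1 difference was not tested.

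Slco1a3, which encodes the kidney transporters OAT-K1 and OAT-K2 of the luminal membrane, known to carry methotrexate and folate, was higher in Dahl S. One probe set read 10.42, 10.45 and 10.19 in Lewis and 11.13, 11.18 and 11.15 in Dahl S, and the other 10.55, 10.73 and 10.77 against 11.23, 11.21 and 11.22. In both, every Dahl S array lay above every Lewis array, and the Dahl S arrays agreed closely. The differences were 0.80 (SE 0.08, adjusted p = 2.1e-05), or 1.74-fold, and 0.54 (SE 0.07, adjusted p = 2.1e-04), or 1.45-fold. They passed without any 1 array, and were 1.17 (adjusted p = 0.015) and 0.89 (adjusted p = 0.098) in unscaled values. Other tested genes of the same cluster on chromosome 4 did not pass. Slco1a1, a luminal transporter of steroid conjugates, gave -0.18 (SE 0.06, 95% interval -0.31 to -0.05, adjusted p = 0.0562), with no overlap, a value that passed without Lewis array 1 (-0.20, adjusted p = 0.024) and was 0.17 in unscaled values. Slco1a6 gave 0.01 (SE 0.06, 95% interval -0.11 to 0.14). Slco1a members are close relatives and probe sets may share targets, so a signal is uncertain as that of 1 gene.

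Slco2b1, a broad-specificity carrier of steroid sulfates, was higher by 0.43 (SE 0.13, adjusted p = 0.0396) in its tested probe set. It read 6.46, 6.84 and 6.66 in Lewis and 7.06, 7.03 and 7.14 in Dahl S, without overlap. The call was lost without a filter (adjusted p = 0.099) and without any single array except Lewis array 2 (0.34 to 0.45). A dimmer Slco2b1 probe set was not tested. Its normalized log2 values averaged 6.14 in Lewis and 6.28 in Dahl S, and the strains overlapped. Slco3a1 gave 0.26 (SE 0.11, adjusted p = 0.13) and 0.03 (SE 0.13) in its 2 probe sets, and Slco4a1, a thyroid hormone carrier, 0.02 (SE 0.11). Slco1a4, Slco1a5, Slco1b2, Slco1c1, Slco5a1 and Slco6b1, several of them known from liver, brain or testis, had no tested probe set, and their deposited intensities ran from 0.6 to 62.3.

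The luminal efflux genes that follow OAT and OCT uptake did not pass the threshold. Slc47a1, which encodes MATE1, the proton exchanger that releases cations into urine, read 11.16, 11.28 and 11.17 in Lewis and 11.29, 11.09 and 11.21 in Dahl S. The strains overlapped, with a difference of -0.01 (SE 0.07, 95% interval -0.16 to 0.14). Abcg2, which encodes the breast cancer resistance protein BCRP, a urate and drug pump, read 9.99, 10.50 and 10.14 in Lewis and 10.36, 10.29 and 10.20 in Dahl S. Its difference was 0.07 (SE 0.11, 95% interval -0.17 to 0.31). Abcc2 and Abcc4, which encode the conjugate pumps MRP2 and MRP4, gave -0.17 (95% interval -0.46 to 0.12) and -0.23 (95% interval -0.47 to 0.01). These intervals leave room for differences in either direction, and a missed threshold does not show equal levels.

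Abcb1a, which encodes a P-glycoprotein that pumps hydrophobic drugs, gave -0.42 (SE 0.23, adjusted p = 0.255) and -0.61 (SE 0.19, adjusted p = 0.0522). Dahl S array 3 stood above the others of its strain and read 7.10 and 6.47 where Dahl S arrays 1 and 2 read 5.96 and 6.26, and 5.80 and 5.74. The Lewis arrays lay at 6.75, 6.98 and 6.82, and at 6.77, 6.42 and 6.63. Without Dahl S array 3 both probe sets passed as lower (-0.74, adjusted p = 0.013, and -0.83, adjusted p = 0.009), and the second passed with a common median (adjusted p = 0.04). A probe set that matches both Abcb1a and Abcb1b was left out.

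On the basolateral side, Abcc1, which encodes the glutathione conjugate pump MRP1, was at 7.36, 7.23 and 7.23 in Lewis and 6.95, 6.89 and 7.04 in Dahl S. The strains did not overlap, as for 34.4% of all tested probe sets, and the difference of -0.32 (SE 0.11, adjusted p = 0.0669) was not past the threshold, though it was without a variance trend (adjusted p = 0.041). Abcc3, Abcc5 and Abcc6 gave -0.01, -0.23 and -0.08. The lipid exporters Abcb4, a phosphatidylcholine floppase, and Abcg1, a cholesterol exporter, gave -0.14 and -0.10. The bile salt pump gene Abcb11 and the sterol exporter genes Abcg5 and Abcg8 were not tested, with deposited intensities of 1.1 to 26. Abcc10 (16 to 77.9), Abcg4 (13.1 to 22.5) and, outside the efflux class, Abcb9 (12 to 31.3) were not tested either.

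A ratio of 2 deposited intensities within an array is the same under any single scaling factor for that array, although quantile normalization changes it. Ratios of uptake genes over Slc47a1, and of relatives over each other, are given as a description with no test, since the pairs were chosen after the values were seen. The log2 ratio of Slc22a6 over Slc47a1 was 0.74, 0.24 and 0.38 in Lewis and -0.29, -0.25 and -0.22 in Dahl S, a difference of -0.71 between the means, and the strains did not overlap. The ratios of Slc22a8 and Slc22a2 over Slc47a1 gave differences of -0.34 and -0.26, and Slc22a6 over Slc22a8 one of -0.37. The brighter Slco1a3 probe set over Slco1a1 and Slco1a6 gave 0.72 and 0.60, and the dimmer one 1.01 and 0.88. Slco2a1 over Slco3a1 differed by -1.38.

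**Figure D3:**
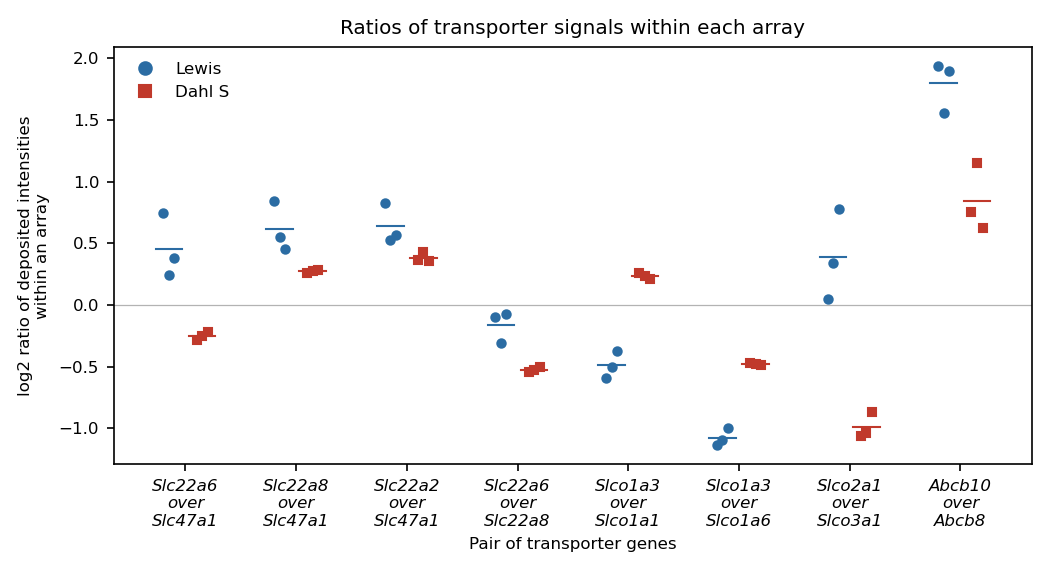
Log2 ratio of the deposited intensities of 1 transporter gene over another within each array (y axis) for 8 pairs (x axis, the brightest probe set of each gene), with Lewis arrays as blue circles, Dahl S arrays as red squares and strain means as lines. The strains do not overlap in each of the 8 pairs, which is a description only, since the pairs were chosen after the values were seen. Of all single probe sets tested, 34.4% do not overlap. Slc22a6 over Slc47a1 is 0.24 to 0.74 in Lewis and -0.29 to -0.22 in Dahl S.

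Outside both classes, Abcb10, an ABC protein of the mitochondrial inner membrane that is needed for haem synthesis, was lower in Dahl S in both probe sets. The brighter read 9.97, 9.77 and 9.92 in Lewis and 8.94, 8.99 and 8.98 in Dahl S, a difference of -0.92 (SE 0.08, adjusted p = 9.4e-06), or 1.89-fold. The other read 9.12, 8.67 and 8.62 against 7.90, 7.50 and 7.75, a difference of -1.09 (SE 0.14, adjusted p = 2.1e-04). Neither overlapped between strains, both passed without any 1 array, and they gave -0.49 and -0.65 in unscaled values. Abcb8 and Abcb6, related proteins of mitochondria and other organelles, gave 0.00 and -0.06, and the ratio of Abcb10 over Abcb8 within an array differed by -0.96. Slc22a18, an orphan member of the family, read 11.06, 10.89 and 10.85 in Lewis and 10.41, 10.57 and 10.52 in Dahl S, a difference of -0.43 (SE 0.08, adjusted p = 0.00189) that was -0.06 without scaling. Slc22a17, the lipocalin receptor gene, gave -0.18 and the brighter Slc22a23 probe set -0.06. The dimmer Slc22a23 probe set was not tested. It read 7.02, 6.51 and 5.96 in Lewis and 5.75, 5.57 and 5.76 in Dahl S, without overlap. The channel regulator gene Abcc9 gave 0.18 and 0.11, and Abcc8 -0.23, none past the threshold.

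**Figure D4:**
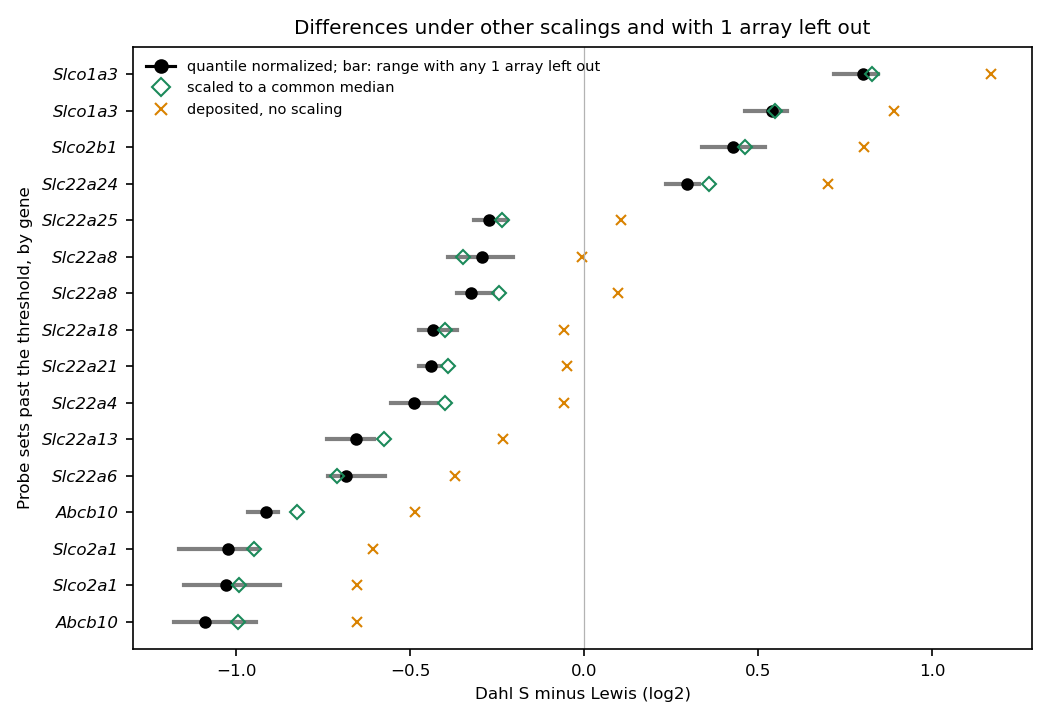
Dahl S minus Lewis difference (x axis, log2 units) of the 16 probe sets past the threshold after quantile normalization (filled circles; bars span the fits with any 1 array left out), after scaling to a common median (open diamonds) and in the deposited values with no scaling (crosses). Unscaled values lie further right throughout, and those of 1 Slc22a8 probe set and of Slc22a25 change sign to 0.10 and 0.11.

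Other genes of renal organic ion handling, a list of transporters, scaffold proteins and transcription factors, were lower or did not pass. Of 31 tested, 10 passed, each of them lower, and 21 did not pass, with a median of -0.13 beside 0.00 over all tested probe sets. Of all tested genes 16.7% passed, 9.04% higher and 7.62% lower. Slc13a3, which encodes the basolateral dicarboxylate transporter NaDC3 that supplies OAT1 and OAT3 with their exchange substrate, had a difference of -0.80 (SE 0.12, adjusted p = 8.1e-04), and its luminal relative Slc13a2 one of -0.58 (SE 0.10, adjusted p = 0.00214). The lactate transporter gene Slc5a12 gave -0.84 (SE 0.08), Slc51a, a subunit of the organic solute transporter, -0.83 (SE 0.11), the nucleoside transporter gene Slc28a1 -0.72 (SE 0.14) and the scaffold gene Nherf2 -0.45 (SE 0.10). Hnf4a, a nuclear receptor gene that drives proximal tubule transporters, gave -0.12 (SE 0.06, adjusted p = 0.165), and Pdzk1, a luminal scaffold, -0.16 (SE 0.06, adjusted p = 0.0833).

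Differences of the proximal tubule markers ran from -0.49 (Pck1) to 0.49 (Anpep). Of 13 tested, 1 was higher, 4 were lower and 8 did not pass, with a median of -0.10. For this and the marker counts below, 9.04% of all tested genes were higher and 7.62% lower. Lrp2, the megalin gene, gave -0.07 (SE 0.05), and Slc34a1, the phosphate cotransporter gene, -0.06 (SE 0.06). Summed marker signal was 64847 to 66106 in Lewis and 59689 to 61369 in Dahl S. The injury markers Havcr1 and Lcn2 were higher by 3.07 (SE 0.16) and 1.33 (SE 0.11), and 5 of 7 injury markers, summing to 6692 to 7644 in Lewis and 13541 to 13649 in Dahl S, were higher and 2 did not pass. Of 7 tested macrophage and leukocyte markers 6 were higher and 1 did not pass (sums of 1379 to 1488 in Lewis and 2144 to 2193 in Dahl S). Of 8 fibroblast and smooth muscle markers 5 were higher (3861 to 4807 and 6738 to 6823), of 3 blood markers 3 were higher (3979 to 5137 and 5718 to 6245), and of 3 tested podocyte markers 2 were lower (1060 to 1158 and 723 to 735). None of the 5 hepatocyte markers on the array reached the level for testing (sums of 73 to 108 and 57 to 83). No value in these lists was 0, and the part of any of them in the transporter differences was not tested.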

How the data were processed

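Each array holds the kidney RNA of 1 rat, 3 rats a strain, and p-values measure the spread between these rats. Per the labels, the authors computed the deposited linear intensities with GeneChip Operating Software 1.4; the scaling target is not given in the sources used here, and detection calls were not used. After removal of 57 control probe sets, log2(intensity + 16) was quantile normalized, and probe sets above the median of all values (an intensity of 61.6) on at least 3 arrays were tested with limma 3.58.1 in R 4.3.3 (lmFit, eBayes with a variance trend, two-sided, Benjamini-Hochberg over 15797 probe sets). Fold changes on this scale understate changes of dim genes. SE and 95% intervals are limma's, and the arrays, 3 per strain, limit the precision. The brightest tested probe set stood for a gene.

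All 69 member probe sets matched the RefSeq gene table (GRCr8) by gene identifier, with 0 symbols changed, and 2 further probe sets carried several symbols. The members, classes and lists were chosen with earlier results of these data known. Genes named are the members past the threshold, a fixed set of renal transporters, and up to 6 partner genes past the threshold, smallest adjusted p first. Other members are named to account for all of them. Hnf4a and Pdzk1, which did not pass, and some cell type markers are named outside that rule. The remaining partner genes past the threshold are counted and not named. No probe set carried Slco4c1 or Abcb1b as its single symbol, and these are not reported here. The fit was tested on simulated data. Alternatives kept the same tested probe sets unless the filter was the choice changed. They covered scaling, pseudocount, filter, variance trend, replicate block, class definition and each array left out.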

Additional observations from a re-analysis of the deposited data

How the results depend on the processing

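Precision is limited by 3 arrays per strain, by the lack of detection calls and by the choice of scaling. Pseudocounts of 0 and 64 kept all 16 member calls, and the stricter filter kept the 13 calls it still tested. No filter kept 12, scaling to a common median 13, no variance trend 13 and no scaling 1. The cause of these losses was not tested.

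Of all probe sets, 616 were higher and 58 lower in the unscaled values, and 705 were lower with a common median. Any 1 array left out gave 764 to 1451 higher and 727 to 1344 lower. Uptake probe sets were 1 higher and 0 lower in unscaled values, and 2 to 4 higher and 5 to 9 lower with any 1 array left out; without Dahl S array 3 they were 2 and 5, and without Dahl S array 2 they were 2 and 6. Efflux probe sets lower in Dahl S numbered 1 with a common median, 1 with the replicate block and 1 without a variance trend, 0 to 2 with any 1 array left out, and 2 with class set by family prefix alone, both of Abcb10. Slc22a25 and the dimmer Slc22a8 probe set turned to 0.11 and 0.10 in unscaled values. The replicate block gave 1295 probe sets higher and 1199 lower, kept 15 of 16 member calls (not the dimmer Slc22a8 probe set, adjusted p = 0.058) and added Slc22a2 (0.041) and an Abcb1a probe set (0.033). Same-numbered arrays share only a number: their deviations from the strain means correlated at -0.05, -0.10 and 0.11.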
